A study of Homo sapiens with 17 samples.

Results

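The regions described here are places where the pioneer factor FOXA1 was called with and without induction of A-Fos, and where no FOSL2 region called in both uninduced FOSL2 libraries overlapped. They were selected on peak calls: the peaks of 4 FOXA1 lists from A549 cells carrying A-Fos were merged where they overlapped by at least 1 bp on chromosomes 1 to 22 and X, and a region became a member when all 4 lists called it and it overlapped no FOSL2 region called in both lists without doxycycline. There were 2540 members among 27825 merged FOXA1 regions, or 9.13%. They made up 79.3% of the 3205 regions called in all 4 lists and 42.2% of the 6012 called in both lists without doxycycline.

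The series used ChIP-seq, in which DNA bound by a protein is pulled down with an antibody and sequenced, on A549 cells, a human line established from a lung carcinoma. Its 17 samples include 2 libraries, named as biological replicates, of each group used here. WT cells, without the construct and untreated, gave FOXA1, H3K27me3 and H3K9me3 libraries. Cells with A-Fos integrated by the piggyBac transposon gave FOXA1 and FOSL2 libraries, either untreated (No Dox) or fixed 48 h after doxycycline at 1 µg/mL (Dox). A-Fos is a dominant-negative Fos that pairs with AP-1 subunits and keeps them off DNA. All A-Fos groups carry the construct, No Dox included, and no library of doxycycline-treated cells lacking it was analysed here, so the drug and A-Fos cannot be told apart. Whether the A-Fos cells are 1 clone is not given in the sources used here.

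FOXA1 is a forkhead factor of lung, liver and other endoderm-derived epithelia that can bind its motif in closed chromatin. FOSL2, also called Fra-2, is a Fos family subunit of AP-1, which binds a short palindromic motif as a dimer with a Jun protein and is active in epithelial and carcinoma cells. FOXA1 and AP-1 share many enhancers in epithelial cells, and the title of the series names binding synergy between them as its subject, so these regions are the FOXA1 sites that stayed called with A-Fos induced and where FOSL2 was not called reproducibly.

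The members' FOXA1 sites could be read at base level only where a region overlapped 1 of 34961 promoter windows, each reaching from 250 bp before to 50 bp after a RefSeq start site (GRCh38.p14). Of the 2390 members on the chromosomes of that table, 93 overlapped 108 windows of 101 genes, and 56 windows held the summits of all 4 A-Fos FOXA1 peaks. The stretches below are drawn from those windows, 5′ to 3′ on the strand of the gene, running up to 60 bp to each side of the mean summit and cut at the ends of the part before the start site. Capitals mark matches to the forkhead motif (TGTTTAC or TATTTAC on either strand) or to the AP-1 motif (TGANTCA, which is its own reverse complement; the motifs share no match in these stretches). The first 5 are members and were chosen after their values were seen, apart from ECT2, which the rule for named members gave. They lie at ECT2, a factor needed for cell division (chr3:172750476-172750542, + strand), TBL1X, a subunit of a nuclear corepressor complex (chrX:9463046-9463166, + strand), C4BPA, a subunit of an inhibitor of complement (chr1:207104105-207104225, + strand), PAPPA, a protease that cleaves binding proteins of insulin-like growth factors (chr9:116153591-116153711, + strand), and CBFA2T2, a transcriptional corepressor (chr20:33562221-33562341, + strand). The last stretches serve as contrast and were chosen after their motifs and values were seen, so they do not stand for their classes. One, chosen for holding both motifs, is at LOC105375284 (chr7:54996116-54996236, − strand), in a region kept in all 4 lists with FOSL2 called in both No Dox lists, and the other at the splicing factor gene MBNL2 (chr13:97141746-97141833, + strand), in a region with FOSL2 that lost FOXA1 calls under Dox.
ECT2: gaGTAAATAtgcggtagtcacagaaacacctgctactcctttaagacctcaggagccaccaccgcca
TBL1X: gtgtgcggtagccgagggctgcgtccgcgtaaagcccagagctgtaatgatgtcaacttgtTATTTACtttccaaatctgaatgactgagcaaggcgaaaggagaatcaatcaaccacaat
C4BPA: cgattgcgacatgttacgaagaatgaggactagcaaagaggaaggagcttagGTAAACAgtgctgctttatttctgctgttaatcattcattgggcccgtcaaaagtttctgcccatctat
PAPPA: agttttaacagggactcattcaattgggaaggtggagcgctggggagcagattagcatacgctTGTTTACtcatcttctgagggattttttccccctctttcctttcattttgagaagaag
CBFA2T2: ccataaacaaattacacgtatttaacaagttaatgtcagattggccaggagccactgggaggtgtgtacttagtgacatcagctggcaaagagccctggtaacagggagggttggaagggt
LOC105375284: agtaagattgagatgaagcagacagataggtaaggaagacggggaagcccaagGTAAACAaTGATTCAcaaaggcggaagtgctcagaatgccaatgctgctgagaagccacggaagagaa
MBNL2: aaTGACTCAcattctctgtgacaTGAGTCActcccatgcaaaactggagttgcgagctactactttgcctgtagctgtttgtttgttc

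The first 4 stretches each hold 1 forkhead match and no AP-1 match, and the window of CBFA2T2 holds neither. The ECT2 match lay 1 bp, the TBL1X match 4 bp, the C4BPA match 5 bp and the PAPPA match 6.25 bp from the mean FOXA1 summit. At LOC105375284 a forkhead and an AP-1 match stand side by side, and at MBNL2 there are 2 AP-1 matches and no forkhead match. FOXA1 fold enrichment, the authors' linear ratio over background for each peak, was 21.9 and 43.8 in the 2 No Dox libraries, 37.0 and 57.1 in the Dox libraries and 95.9 and 280 in the WT libraries at ECT2. The No Dox and Dox values at ECT2 overlapped, and neither No Dox FOSL2 list had a peak there. At TBL1X the values were 16.6 and 16.4 without and 25.1 and 24.2 with doxycycline, and the groups did not overlap. The region at TBL1X had a FOSL2 peak of fold 8.52 in No Dox replicate 1 and none in replicate 2. At C4BPA the FOXA1 values were 10.4 and 13.3 without and 22.2 and 20.8 with doxycycline, again without overlap. At PAPPA they were lower under Dox, 13.3 and 16.9 against 11.2 and 9.32, also without overlap. At CBFA2T2 they were 14.01 and 21.7 without and 15.3 and 19.97 with doxycycline, and the groups overlapped. No Dox FOSL2 replicate 1 had peaks of fold 4.26 at C4BPA and 11.1 at PAPPA and none at CBFA2T2. At LOC105375284 the FOXA1 values were 22.9 and 49.7 without and 12.8 and 16.8 with doxycycline. The strongest windows kept with FOSL2, at LOC105375170 and LOC105373682, held forkhead and no AP-1 matches, and their values were higher under Dox, 54.9 and 85.5 against 86.9 and 108 at the first and 42.8 and 78.8 against 95.4 and 103 at the second.

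Among the 56 promoter windows that held all 4 summits of a member, 39 had a forkhead match (69.6%, exact 95% interval 55.9 to 81.2%), against 5.97% of all promoter windows. The nearest match lay a median of 5.75 bp from the mean summit, and 36 of the 39 lay within 50 bp. The 38 windows that a member overlapped without any summit inside had a forkhead match in 7 cases (18.4%). Matches to AP-1 were found in 2 of the 56 windows (3.57%, 0.44 to 12.3%), beside 7.68% of all windows, and neither lay within 50 bp of a summit. The sequences were no part of the rule that chose the members. FOSL2 calls were part of it, and AP-1, to which FOSL2 belongs, binds the AP-1 motif. The AP-1 shares are therefore not independent of the rule, and their differences from classes with FOSL2 are a description.

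Counting each region once, 33 of 50 members with such a window had a forkhead match and 2 of 50 an AP-1 match. The forkhead count was 20 of 28 among members with no No Dox FOSL2 peak and 13 of 22 among those with one. In regions kept with FOSL2 the AP-1 motif was present in 13 of 22, a difference in share of −55.1 percentage points (members minus kept with FOSL2, Newcombe 95% interval −73.0 to −32.6). Over all overlapped windows it was −52.0 points, and −29.7 when a peak in any FOSL2 list counted as FOSL2. Regions without FOSL2 that were called in both No Dox lists and in neither Dox list, termed lost without FOSL2, had an AP-1 match in 5 of 6 and a forkhead match in 1 of 6. The members differed from them by −79.3 points for AP-1 (−93.3 to −38.5) and by 49.3 points for forkhead (7.30 to 67.2). For forkhead the members and the regions kept with FOSL2 (11 of 22) were not distinguishable, with a difference of 16.0 points (−7.74 to 38.5). Gained regions, called in both Dox and no No Dox list, had a forkhead match in 12 of 17 and an AP-1 match in 1 of 17. These windows cover the few regions at promoters and are small in number, and intervals over regions cover counting error alone, since regions of 1 library are not replicates.

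**Figure D1:**
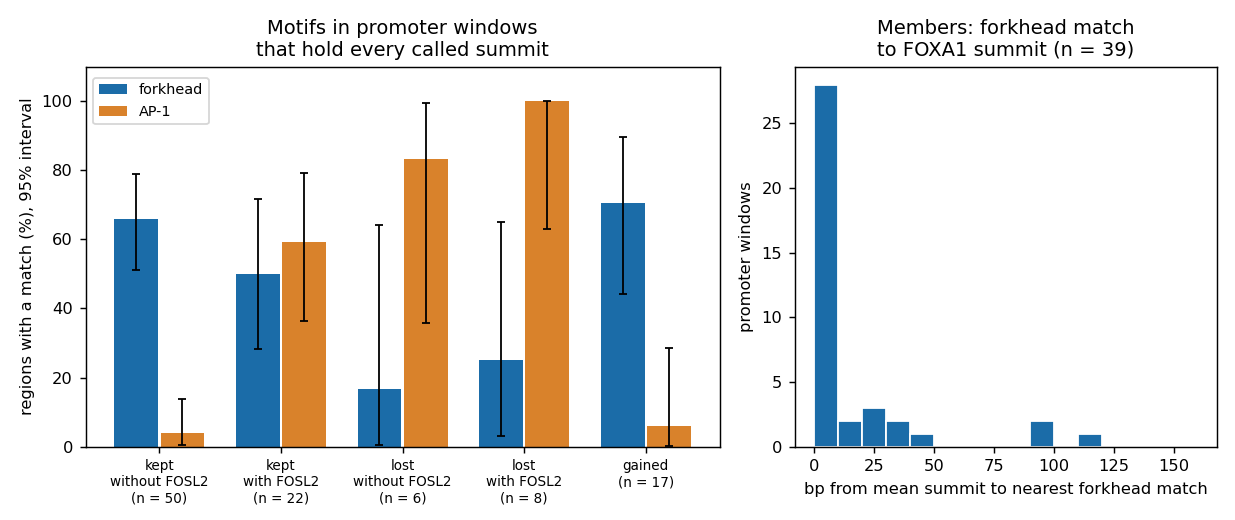
Left, share of regions (%) with a forkhead or AP-1 motif match in a promoter window that holds every called FOXA1 summit, by class of region (the members are those kept without FOSL2), with exact 95% intervals and the number of regions under each class. Right, distance in bp from the mean summit of the 4 A-Fos FOXA1 peaks to the nearest forkhead match in 39 windows of members. AP-1 bars are at 4.00% in the members and at 59.1% in regions kept with FOSL2, and the forkhead matches lie a median of 5.75 bp from the summit.

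The name of the class needs 1 qualification from the FOSL2 lists. The No Dox FOSL2 lists held 45586 and 14842 peaks, and 872 members (34.3%) overlapped a peak of replicate 1 while 13 (0.51%) overlapped a peak of replicate 2. At least 1 of these lists had a peak at 884 members, so 1656 had none in either, and 1 member had separate peaks in both. The peaks of replicate 1 at members were of middling height, with a median fold of 5.92 at the 45.8th percentile of that list. In regions lost without FOSL2, 63.3% of 1117 overlapped a replicate 1 peak. The rule used these lists, so the shares are a description. Barring a peak in any of the 4 FOSL2 lists would leave 1646 members, and judging FOSL2 by No Dox replicate 1 alone 1668. Whether a peak in 1 list marks FOSL2 below the calling threshold of the shorter list was not tested. Under Dox, a FOSL2 peak was called in either list at 19 members (0.75%, 0.45 to 1.17%), where the share over all merged regions was 1.53%. The merged regions include those with FOSL2 that the rule barred, so a lower share follows in part from the rule. Regions lost without FOSL2 had 0.36%. The 19 members included regions that at least 1 WT list lacked, with CWH43, LOC124905368, LOC124903442 and KCNJ18 as nearest genes. The KCNJ18 region had the highest fold of the Dox FOSL2 replicate 1 list, 6.57.

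The median gap from a member to the nearest FOSL2 region called in both No Dox lists was 43.2 kb, 85 members (3.35%) lay within 1 kb, 477 between 1 and 10 kb, 1221 between 10 and 100 kb and 757 farther off. Leaving out the members within 1 kb left 2455, and their shares for WT calls, marks, start sites and motifs stayed within the error of the full set.

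In the lists that chose them, the members had median FOXA1 folds of 7.52 and 10.8 in No Dox and 8.13 and 10.7 in Dox. As percentiles of fold within each list, their medians were 67.1 and 77.2 in No Dox and 83.1 and 87.3 in Dox. A percentile depends on what else was called, and the 4 lists held 7633, 13247, 11112 and 15065 peaks. Members supplied 53.0% and 46.0% of the highest 1000 peaks of the No Dox lists and 75.3% and 76.0% of those of the Dox lists. The rule used these calls, so the values describe the members and carry no test. Just inside the threshold, 23 members had a −log10 q under 2 in their weakest list, the lowest being 1.42. Just outside, 1951 regions without FOSL2 were called in exactly 3 lists, and 1150 of them were missing from No Dox replicate 1, the shortest list.

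WT cells, which took no part in the rule, also had FOXA1 at nearly every member. Both WT lists called 2525 members (99.4%, 99.0 to 99.7%), against 57.7% of all merged FOXA1 regions. This was not particular to the members, since regions kept with FOSL2 had 99.4% (members minus kept 0.01 points, −0.52 to 0.97), those lost without FOSL2 98.9% and those lost with FOSL2 99.7%. The median fold at members was 22.4 and 47.9 in the 2 WT libraries, at the 93.8th and 96.4th percentile of lists of 49448 and 80318 peaks. Regions kept with FOSL2 stood above the members at the 96.5th and 98.4th percentile, regions lost without FOSL2 below them at 90.5 and 93.9, and gained regions at 65.3 and 76.2. Regions lost with FOSL2 were at 90.1 and 94.7, below those lost without FOSL2 in replicate 1 and above them in replicate 2. With 2 libraries these levels have no test.

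**Figure D2:**
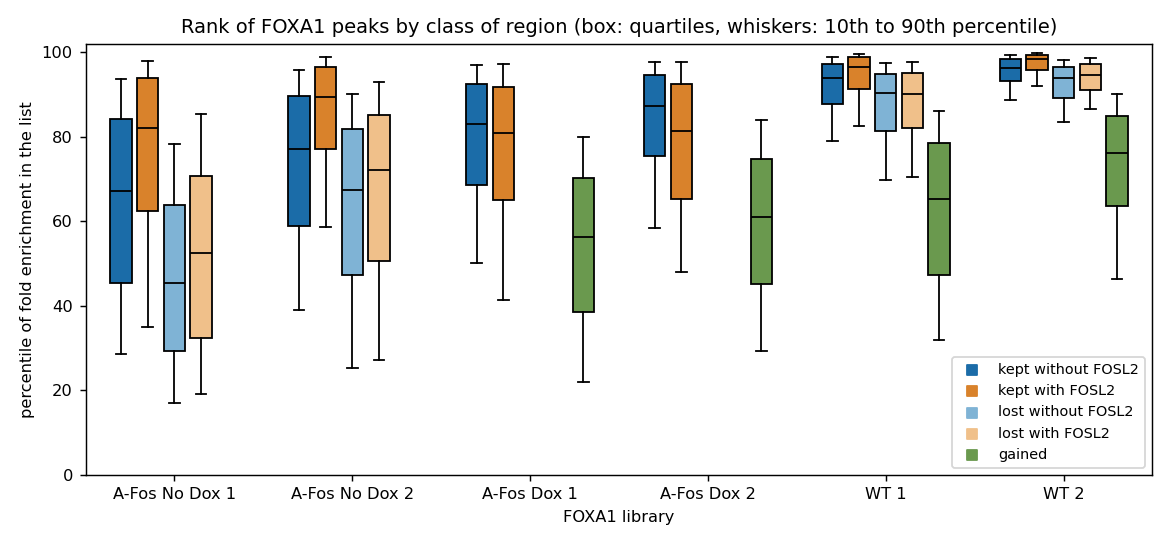
Percentile of FOXA1 fold enrichment within each list (y axis) for the members (kept without FOSL2) and 4 other classes of region in 6 FOXA1 libraries (x axis); boxes span the quartiles with the median as a line, and whiskers the 10th to the 90th percentile. Classes are drawn only in lists that their rule requires them to be called in, and in both WT lists, where the members have medians of 93.8 and 96.4.

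The members' summits were at nearly the same base in all libraries. The median distance between the summits of 2 libraries was 11 and 13 bp within No Dox and within Dox, 6 to 15 bp between No Dox and Dox, and 4 to 14 bp between A-Fos and WT. The 4 A-Fos summits of a member spanned a median of 27.5 bp, 69.6% of members had all 4 within 50 bp, and 121 (4.76%) had a span over 200 bp. The order of the members by fold was less alike between conditions than within them. Across the 2540 members, Spearman's rank correlation was 0.81 between the No Dox and 0.74 between the Dox libraries, 0.45 to 0.64 between No Dox and Dox, and 0.87 between the WT libraries over the 2525 members both called. These are correlations across regions, which share library and background, and have no p-value.

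Within the 3205 regions called in all 4 lists, each region was ranked by fold in each list, on a scale from 0 to 100, and the mean No Dox rank was taken from the mean Dox rank. The median difference for members was 5.70 points (quartiles −7.45 and 19.3), with a median change in log2 fold of 0.11. By FOSL2 calls, which the rule also used, members with no No Dox FOSL2 peak (1656) had a median of 8.90 points, members with a peak in at least 1 list (884) −0.37 points, and the 665 regions kept with FOSL2 −13.5 points. The last value was −4.73 points when a peak in any FOSL2 list counted as FOSL2 and −4.98 without No Dox FOSL2 replicate 2, and that of members with a peak was −7.64 with peaks at or above the median fold of each list. On the log2 fold scale the medians were 0.21, −0.11 and −0.56. Replicate 1 of Dox against replicate 1 of No Dox gave 7.27, 0.40 and −8.42 points, and replicate 2 gave 10.6, −1.31 and −16.3, so the sign for the middle set differed between replicates and the order of the 3 sets did not. Ranks within a fixed set sum to a constant, so lower ranks in one set give higher ranks in the others.

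Both Dox ranks stood above both No Dox ranks at 938 members (36.9%), beside 32.3% of all regions called in the 4 lists, and below them at 485 (19.1%), beside 26.6%. Among members with no FOSL2 peak these shares were 42.8% above and 12.9% below, and among members with a peak in at least 1 list 25.9% and 30.7%. Regions kept with FOSL2 had 14.4% above and 55.2% below. The rule required all 4 calls, so nothing is read from these shares beyond their size. WT enrichment differed between the sets, with median percentiles of 92.9 and 95.7 for members with no FOSL2 peak and 95.5 and 97.6 for those with one. The part of WT enrichment in these shifts was not tested.

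**Figure D3:**
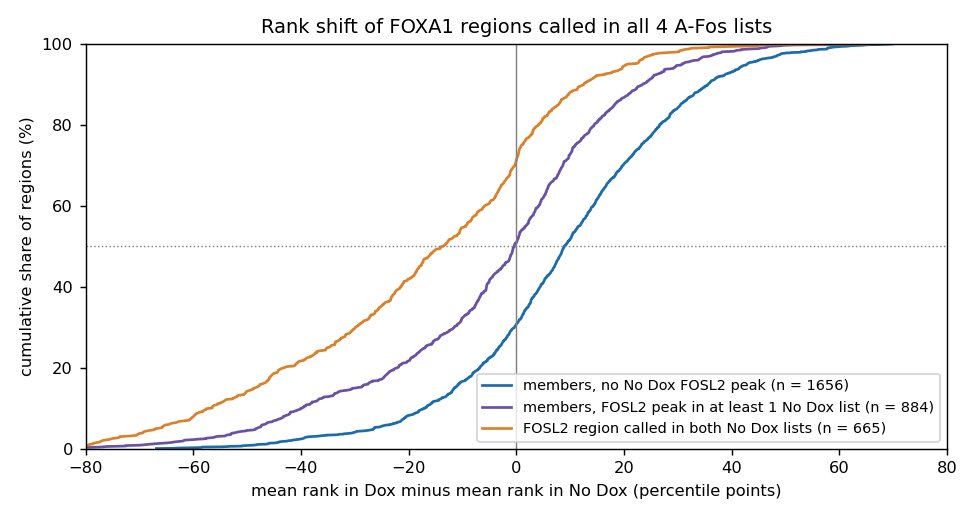
Cumulative share of regions (y axis, %) against the mean rank in Dox minus the mean rank in No Dox (x axis, percentile points) for 1656 members with no No Dox FOSL2 peak, 884 members with a peak in at least 1 No Dox list and 665 regions kept with FOSL2. The dotted line marks the median, which falls at 8.90, −0.37 and −13.5 points.

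Few members lay in repressive chromatin of WT cells. H3K27me3, the mark of Polycomb repression, was called in both libraries at 50 members (1.97%, 1.46 to 2.59%), against 8.32% of all merged FOXA1 regions. H3K9me3, a mark of heterochromatin, was called in both libraries at 31 members (1.22%, 0.83 to 1.73%), against 6.3% of all merged regions. The members' shares were 1.01% and 0.545% when an overlap of 50% was asked, and 3.23% and 2.36% with the calls of replicate 2 alone. For H3K27me3 the members' share was above that of regions kept with FOSL2 (0.30%) by 1.67 points (0.75 to 2.32), but by 1.40 points with an interval that held 0 when each A-Fos list was limited to peaks at or above its median fold. Against gained regions (11.2%) the difference was −9.21 points (−11.1 to −7.49). Against regions lost without FOSL2 (0.81%) the difference was 1.16 points (0.30 to 1.89), but it turned to −4.02 points when No Dox FOXA1 replicate 2 was left out of the rule, and its interval held 0 when No Dox FOXA1 replicate 1 (0.24 points) or No Dox FOSL2 replicate 2 (1.18 points) was left out, with 100 bp to each side of summits (0.43 points), with 50% overlap (0.39 points) and with no peak in any FOSL2 list (1.26 points). For H3K9me3 the members minus gained regions gave −2.92 points (−4.21 to −1.84), and members minus regions kept with FOSL2 gave 0.77 points (−0.17 to 1.36), an interval that holds 0.

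The marked members named here were the 3 of highest FOXA1 percentile with each mark. A region in TLN2, which encodes the cytoskeletal linker talin 2 (chr15:62569919-62570700), had H3K27me3 folds of 8.24 and 9.88 and FOXA1 folds of 43.3 and 50.2 in No Dox, 43.6 and 45.6 in Dox and 111 and 294 in WT. Both Dox values there lay between the No Dox values. A region 380 kb from ACTL7B (chr9:108473395-108474665) had H3K27me3 folds of 2.41 and 4.29. Its FOXA1 folds were 29.0 and 55.6 in No Dox and 23.7 and 30.9 in Dox, and the groups overlapped. Near EMX2, a homeobox gene of brain and urogenital development that lay 169 kb away (chr10:117718792-117719506), the H3K27me3 folds were 4.60 and 3.19 and the FOXA1 folds 17.8 and 22.9 in No Dox and 25.9 and 28.2 in Dox. A region in SCIMP, an immune adaptor gene (chr17:5232094-5232698), had H3K9me3 folds of 2.55 and 3.93 and FOXA1 folds of 22.8 and 47.9 in No Dox and 14.7 and 25.7 in Dox. The other H3K9me3 regions lay 114 kb from CDC42EP3 and 24.0 kb from AKR1B1. Near CDC42EP3 the FOXA1 folds were 15.0 and 11.8 in No Dox and 26.6 and 20.4 in Dox, without overlap. Near AKR1B1 they were 10.8 and 21.8 in No Dox and 12.6 and 14.7 in Dox, which overlapped. A mark and a factor called at one place in different libraries need not share the same cells or alleles.

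Members were more often near start sites than the FOXA1 regions as a whole. A RefSeq start site lay within 1 kb of 148 of 2390 members (6.19%, 5.26 to 7.23%), against 3.64% of all merged regions. The members' share was 2.73 points above that of regions lost without FOSL2 (1.16 to 4.14) and not distinguishable from that of regions kept with FOSL2 (members minus kept −1.74, −4.30 to 0.41). The first difference was 1.99 points with an interval that held 0 when members with a peak in any FOSL2 list were dropped, and 1.97 points when No Dox FOSL2 replicate 2 was left out. A protein-coding gene spanned 1265 members (49.8%), against 45.7% of all merged regions. Median region width was 576 bp in members and 674 bp in regions kept with FOSL2. It was 423 bp in regions lost without FOSL2 and 411 bp in gained regions. Shares of overlap with marks, genes and start sites depend on width, and its part in these differences was not tested.

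**Figure D4:**
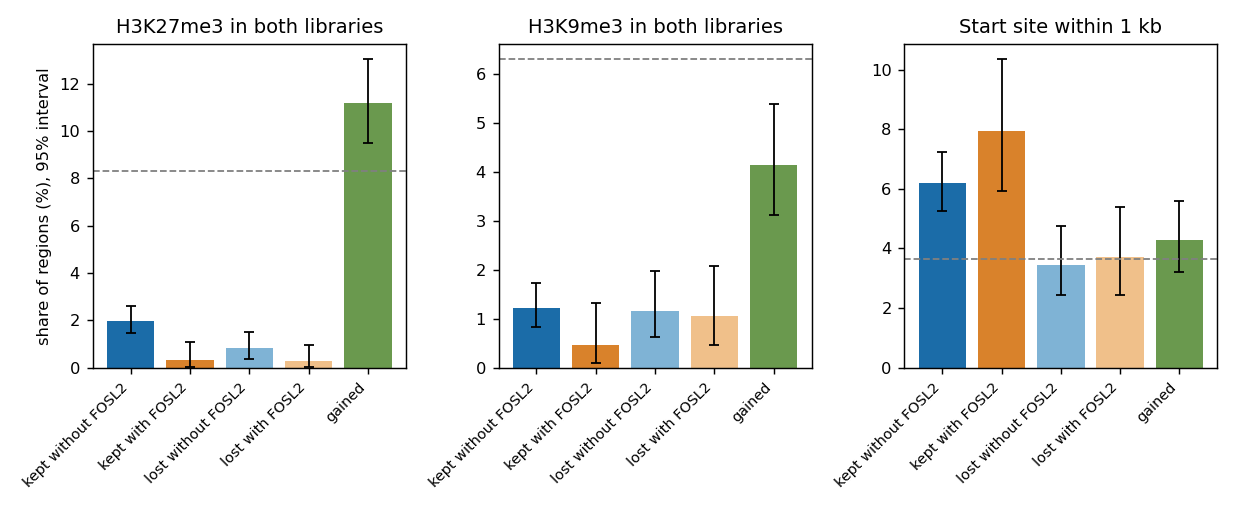
Share of regions (y axis, %) with H3K27me3 called in both WT libraries, with H3K9me3 called in both, and with a RefSeq start site within 1 kb, for the members (kept without FOSL2) and 4 other classes of region; error bars are exact 95% intervals and the dashed line is the share of all merged FOXA1 regions. Members are at 1.97%, 1.22% and 6.19%.

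The 12 members of highest mean percentile over the A-Fos FOXA1 lists were strong in every FOXA1 library. The first lay in TRIM5, a restriction factor for retroviruses (chr11:5620918-5621834), with folds of 72.3 and 156 in No Dox, 109 and 176 in Dox and 249 and 450 in WT. Its Dox values were above the No Dox values of the same replicate number, and the groups overlapped. It had a FOSL2 peak of fold 5.38 in No Dox replicate 1 alone. A region far from any coding gene, 1973 kb from AGA (chr4:179415574-179416374), had 42.8 and 56.0 in No Dox and 56.9 and 89.6 in Dox, without a FOSL2 peak and without overlap. A region 14.9 kb from CRYZ, a quinone reductase gene (chr1:74689692-74690551), had 32.9 and 55.5 in No Dox, 64.0 and 91.8 in Dox and no FOSL2 peak, and its Dox values were above both No Dox values.

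The Dox values of other strong members were lower or overlapped those of No Dox. In ITPR2, which encodes an intracellular calcium channel (chr12:26768928-26769760), the folds were 99.9 and 151 in No Dox and 30.6 and 67.4 in Dox, with no overlap, and 187 and 483 in WT. A FOSL2 peak of fold 9.81 was called there in No Dox replicate 1. A region 43 kb from BICC1, an RNA-binding protein gene (chr10:58467963-58469258), had 58.6 and 124 in No Dox and 25.3 and 79.1 in Dox, which overlapped, and no FOSL2 peak. Near RPLP1, a ribosomal protein gene 138 kb away (chr15:69594296-69595245), the A-Fos values were 47.2 and 67.9 without and 44.97 and 52.5 with doxycycline, which overlapped, while WT gave 312 and 795, the highest peak of WT replicate 2. In the ranks within the kept regions, 4 of the 12 stood higher in both Dox lists than in both No Dox lists and 4 stood lower in both. Distances are to the nearest protein-coding gene interval and say nothing of which gene a region serves.

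**Figure D5:**
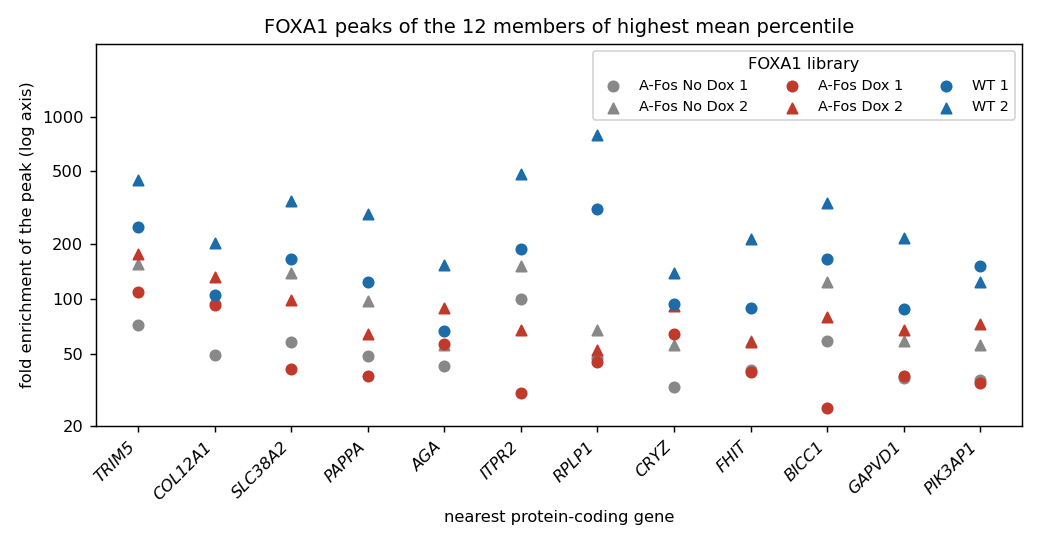
FOXA1 fold enrichment (y axis, log scale) in 6 libraries for the 12 members of highest mean percentile, by nearest protein-coding gene (x axis). Grey, red and blue mark A-Fos No Dox, A-Fos Dox and WT, circles replicate 1 and triangles replicate 2; the TRIM5 region spans 72.3 to 450, and the ITPR2 and BICC1 regions have their lowest value in Dox replicate 1.

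At the other end, the 3 members of lowest mean percentile were 2 regions 56 to 58 kb from CWH43 on chromosome 4 and 1 at a start site beside BTG1, an antiproliferative gene (chr12:92145929-92146385). The BTG1 region had folds of 2.13 and 2.37 in No Dox and 2.76 and 2.58 in Dox, all low for a called peak, but 30.4 and 60.2 in WT. It was far stronger in both WT libraries than in any A-Fos library.

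Gene lists were compared by the number of genes with a member within 50 kb, which held for 12.2% of 19974 protein-coding genes. Among targets of NRF2, the factor of the oxidative stress response, 10 of 20 genes had one, resting on 12 distinct members. These included ME1, malic enzyme 1, with folds of 23.8 and 51.03 in No Dox and 21.2 and 58.9 in Dox for a region 3.2 kb away. TXNRD1, thioredoxin reductase 1, had 4 members, of which the strongest, inside the gene, had 8.83 and 13.3 in No Dox and 13.7 and 12.3 in Dox. A region overlapping ABCC2, an export pump for conjugated compounds, had 7.87 and 10.6 in No Dox and 9.33 and 9.09 in Dox. AKR1C1, AKR1C2 and AKR1C3 are neighbours and share a member, so the 10 genes are not separate cases.

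Liver plasma protein and metabolism genes had a member in 7 of 20, again with neighbours: FGA, FGB and FGG, the 3 fibrinogen chains, shared 3 members. The strongest of these, inside FGB (chr4:154569004-154569488), had 15.5 and 13.7 in No Dox and 6.27 and 7.12 in Dox, and the groups did not overlap. A FOSL2 peak of fold 6.63 was called there in No Dox replicate 1. A region 4.3 kb from G6PC1, glucose 6-phosphatase, had 10.7 and 17.6 in No Dox and 15.6 and 18.7 in Dox. Among foregut and liver transcription factor genes 5 of 20 had a member. One lay 42.1 kb from FOXA1 itself (chr14:37546603-37547448), with 19.4 and 48.7 in No Dox, 40.5 and 68.4 in Dox and 66.5 and 154 in WT, and another 34.2 kb from FOXA2, with 4.76 and 6.85 in No Dox and 8.57 and 7.97 in Dox. The Dox values near FOXA2 were above both No Dox values.

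Genes linked to AP-1 had a member in 7 of 29. At 31.1 kb from JUN, a partner of FOSL2 in AP-1 dimers (chr1:58815129-58815606), the folds were 5.10 and 5.01 in No Dox, 10.6 and 6.91 in Dox and 41.9 and 86.4 in WT, with no overlap between No Dox and Dox. At 9.5 kb from CCN2, a matrix-associated growth factor gene, they were 21.8 and 31.1 in No Dox and 28.7 and 40.0 in Dox. No member lay within 50 kb of FOSL2, and the nearest was 244 kb away. Epithelial identity genes had a member in 5 of 24. EHF, an epithelial ETS factor, had 2, and the one inside the gene had 17.7 and 18.6 in No Dox and 33.1 and 27.8 in Dox. GRHL2, a regulator of epithelial junctions, had 3, and the one inside it went from 27.5 and 54.8 in No Dox to 8.98 and 16.4 in Dox. The one 24.4 kb away, of higher mean percentile, had 13.9 and 32.8 in No Dox and 19.0 and 46.3 in Dox, which overlapped. The one 45.8 kb away had 4.72 and 7.85 in No Dox and 3.15 and 4.40 in Dox. No Dox replicate 1 had FOSL2 peaks of fold 2.32 at the region inside EHF and 3.81 at the region inside GRHL2.

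Lung epithelial genes had a member in 2 of 22, both outside but within 50 kb of secretoglobin genes and both lower under Dox. The region 42.7 kb from SCGB3A2, a secreted protein of airway club cells (chr5:147835112-147836022), had 54.4 and 131 in No Dox, 6.49 and 16.0 in Dox and 154 and 361 in WT. Its rank difference was −46.0 points with no overlap of the groups, and neither No Dox FOSL2 list had a peak there. At 34.1 kb from SCGB3A1 the values were 6.997 and 10.5 in No Dox and 5.82 and 6.86 in Dox, with a FOSL2 peak of fold 4.97 in No Dox replicate 1. For the lists chosen as contrast the counts were 3 of 20 housekeeping genes, 2 of 18 blood genes and 3 of 20 neuron and muscle genes. At windows of 10 kb and 100 kb, where 6.67% and 19.0% of all genes had a member, the NRF2 count was 6 and 12 of 20, the AP-1 count 3 and 9 of 29 and the foregut count 1 and 7 of 20. The lung count was 0 and 2 of 22. Shares of 9.09% to 50.0% over lists of 18 to 29 genes stand beside 12.2% for all genes, with no test, because genes differ in length and neighbours share members.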

How the data were processed

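Peak lists of 14 ChIP-seq libraries were used, 1 per library, grouped and numbered by the sample titles; the 3 inputs were not used here. For every peak the deposited files hold coordinates, a summit, a fold enrichment (linear ratio) and −log10 values of the p-value and q-value, all set by the authors. The submitters' processing notes name build hg38 and, without settings, MACS2, deepTools, SAMtools 1.8, BWA 2.2.1, fastp 0.23.2 and DRAGEN. Read counts are not part of these files. Depth is therefore unknown, and list length may differ with it.

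Regions, classes and overlaps (at least 1 bp) were computed in Python 3.11.15 with numpy 2.4.6, pandas 2.3.3 and scipy 1.17.1, and checked on simulated data. A region's value in a library is that of its overlapping peak of highest fold, so 2 regions under 1 peak share it. A mark counted where both libraries called it. Shares have exact (Clopper-Pearson) and differences Newcombe 95% intervals. No p-value was computed over regions. Start sites, promoter windows and genes came from RefSeq tables of GRCh38.p14; chromosome 8 was not analysed here for start sites and promoter windows, which left 2390 of the 2540 members for them. A planned motif search around every summit was replaced by promoter windows, since no genome sequence was used here.

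The members and gene lists were chosen with earlier results of these data known. Named members were the 12 highest and 3 lowest by mean percentile in the A-Fos FOXA1 lists, the 6 highest at promoter windows, the 3 highest with each mark, up to 5 genes per list, and FOXA1, FOSL2 and JUN. The result of 1 gene list is not reported here. Alternatives were stricter lists, lists of equal length, summits in place of peaks, 50% overlap, stricter FOSL2 criteria, other windows and each library left out.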

Additional observations from a re-analysis of the deposited data

How the results depend on the processing

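No paired analysis was possible because the results come from no test; differences between same-numbered libraries stand in the report as a description. The search for motifs in a 50 bp window was not run, for want of a genome sequence. The differences between classes and the rank shifts were recomputed under alternatives chosen after seeing the data. Of the main values recomputed, 176 stayed the same, 33 moved, 8 lost an interval that excluded 0 and 1 reversed, and the cause was not tested. The same meant within a fixed ratio for member counts and within the main interval for shares. For differences it meant the same sign with an interval that still excluded 0. For rank shifts it meant within the standard deviation of the 2 replicate pairs. With the peaks of each A-Fos list at or above its median fold, 100% of members were in both WT lists, 0.757% had H3K9me3, 0.116% a Dox FOSL2 peak, the H3K27me3 difference from regions kept with FOSL2 was 1.40 points with an interval that held 0, and the rank shift of members with a FOSL2 peak was −7.64. With lists of equal length the WT share was 100%, H3K9me3 0.776%, Dox FOSL2 0.319% and that shift −5.68. A −log10 q of at least 3 gave Dox FOSL2 0.279%. With 100 bp to each side of summits the WT share was 99.7%, H3K27me3 1.08%, H3K9me3 0.654%, Dox FOSL2 0.346% and the H3K27me3 difference from regions lost without FOSL2 0.43 points, with an interval that held 0. An overlap of 50% gave H3K27me3 1.01%, H3K9me3 0.545% and that difference 0.39, again with 0 in its interval. With no FOSL2 peak in any list there were 1646 members, the WT share was 99.7%, Dox FOSL2 0 by construction, that difference 1.26 and the start-site difference 1.99, both with 0 in the interval, and the rank shift of regions kept with FOSL2 −4.73. WT peaks at or above their median fold gave a WT share of 98.5%, and a start-site window of 5 kb gave 14.2%. Leaving out 1 library at a time, the member count ran from 1668 (without No Dox FOSL2 replicate 2) to 3690, the WT share from 98.3 to 99.7%, H3K27me3 from 1.72 to 3.23%, H3K9me3 from 1.11 to 2.36%, the H3K27me3 difference from regions lost without FOSL2 from −4.02 (without No Dox FOXA1 replicate 2) to 1.19, the start-site difference from 1.97 to 3.31, the rank shift of members with a FOSL2 peak from −2.36 to 1.24 and that of regions kept with FOSL2 from −15.6 to −4.98. The AP-1 difference from regions kept with FOSL2, over any overlapped window, was −64.0 to −29.7 under all 13 alternatives run for it, and the members' AP-1 share 4.08 to 14.0%.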

Other observations

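Some long genes carried many members. MACROD2 had 15 within 50 kb, all inside its 2058 kb, and PDE4D, a cyclic AMP phosphodiesterase gene of 1553 kb, had 11. ARHGEF28 and THSD7A had 6 each. LGR4, of 107 kb, had 5 within 50 kb, of which 4 were inside it, and TLE1, a Groucho corepressor gene of 106 kb, had 5, of which 3 were inside. These genes were named after their values were seen. By chromosome, members made up from 4.56% of the merged FOXA1 regions on chromosome 19 to 16.4% of those on chromosome 22.

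Of the 15 members that at least 1 WT list lacked, 6 lay between 30.5 and 57.9 kb from CWH43 on chromosome 4, in the span from 49092566 to 49121334 (hg38). Their FOXA1 folds in the A-Fos lists were under 5 apart from 7.90 in No Dox replicate 2 and 10.7 in Dox replicate 2 at 1 region, and WT replicate 2 had no peak at any of the 6. Dox FOSL2 replicate 1 had peaks there of fold 3.88, 3.62, 3.02, 3.60 and 2.15, and the region from 49096242 to 49097479 had none in either Dox FOSL2 list. Others of the 15 also had peaks in that list. Their folds were 6.57 with KCNJ18 as nearest gene, 3.60 and 3.44 with LOC124905368 and 2.59 with LOC124903442. Peaks were not filtered here for artefact-prone regions, and whether these calls are artefacts was not tested. Start-site members at ACOX2, a peroxisomal oxidase gene, and CFLAR, an inhibitor of death receptor signalling, were called in WT replicate 2 (folds 14.4 and 13.4) and not in replicate 1. These regions were all listed because a WT list lacked them.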
